A study of Mus musculus with 6 samples.

Results

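Surface proteins that are used to recognise and sort mesenchymal progenitor cells were examined in C3H10T1/2, a mouse embryonic mesenchymal line able to give rise to fat, cartilage, bone and muscle cells. The members were 10 genes chosen by name, with earlier results of these data known: Dlk1, Cd24a, Cd34, Ly6a, Thy1, Eng, Nt5e, Dpp4, Vcam1 and Mcam. Every probe set carrying exactly 1 of these symbols in the platform annotation was taken, which gave 20 probe sets for 9 of the 10 genes, out of 45101 probe sets on the array. Ly6a had no probe set under its symbol and is not analysed here. The study asked which genes BMP4, a bone morphogenetic protein that cells secrete as a signal, regulates as these cells commit to the adipocyte lineage. One group of 3 samples received 50 ng/ml BMP4 while the cells were proliferating, and the other group of 3 samples was handled alike without BMP4. Total RNA was collected from both once the cultures were past confluence, with 1 single-colour array used per sample. All 6 samples come from 1 cell line, and the labels do not call the replicates separate cultures, so the spread between them may be technical.

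The members fall into 3 groups by their usual roles. Dlk1, Cd24a, Cd34, Ly6a and Dpp4 are used to separate adipocyte progenitors from other stromal cells. Dlk1, also called Pref-1, is a transmembrane relative of the Notch ligands whose shed ectodomain restrains fat cell maturation, and Cd24a is a small, heavily glycosylated protein held by a lipid anchor. Thy1, Eng and Nt5e encode CD90, CD105 and CD73, the classical panel that defines cultured mesenchymal stromal cells, while Vcam1 and Mcam are adhesion molecules of the immunoglobulin superfamily found on marrow and perivascular stroma.

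The values used here carry no detection calls, so signals were read against probe sets for Bacillus transcripts, whose highest signal on any array was 29.1 units and which is called background level below. The mean signal after trimming 2% at each end was 150 on every array, and median signals were 37.6 to 42.6 on BMP4 and 35.2 to 37.3 on control arrays. Background also differed between the groups: the highest Bacillus signal was 23.5 to 29.1 on BMP4 and 16.6 to 21 on control arrays, so 1 level for all arrays is stricter for the controls. The part of this difference in the values of dim probe sets was not tested. A probe set was tested when its mean log2 value over all 6 arrays lay above the 40th percentile, a signal of 23.5, which kept 12 of the 20 member probe sets and 7 of the 9 genes. Differences below are BMP4 minus control on the log2(signal + 16) scale, which understates changes of dim probe sets, and p-values are from limma after adjustment over all 27022 probe sets tested.

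With BMP4, Cd24a and Dlk1 were higher, Vcam1 was lower, and Thy1, Eng, Nt5e and Cd34 were not past the test. Of the 12 tested member probe sets, 4 rose, where 4.2% of all probe sets tested did, and 3 fell, where 4.91% did. Either way 9.12% of all probe sets were called. Among the calls over all probe sets 46.1% were higher, or 25.1% when each array was centred on the median of all its probe sets, and all 7 member calls were kept under that centring. By gene, taking the brightest probe set of each, 2 of 7 rose and 1 fell, against 5.03% and 5.66% of all 12966 genes. The groups did not overlap at 8 of the 12 tested member probe sets, against 28.2% of all tested. Cd34 is 1 of the 8 and passed the filter only through its control arrays. The members, and the lists below, were chosen with earlier results of these data known. Their shares therefore do not test whether they differ from other genes. In bulk RNA a smaller share of cells carrying a marker and less of its RNA per cell cannot be told apart.

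**Figure D1:**
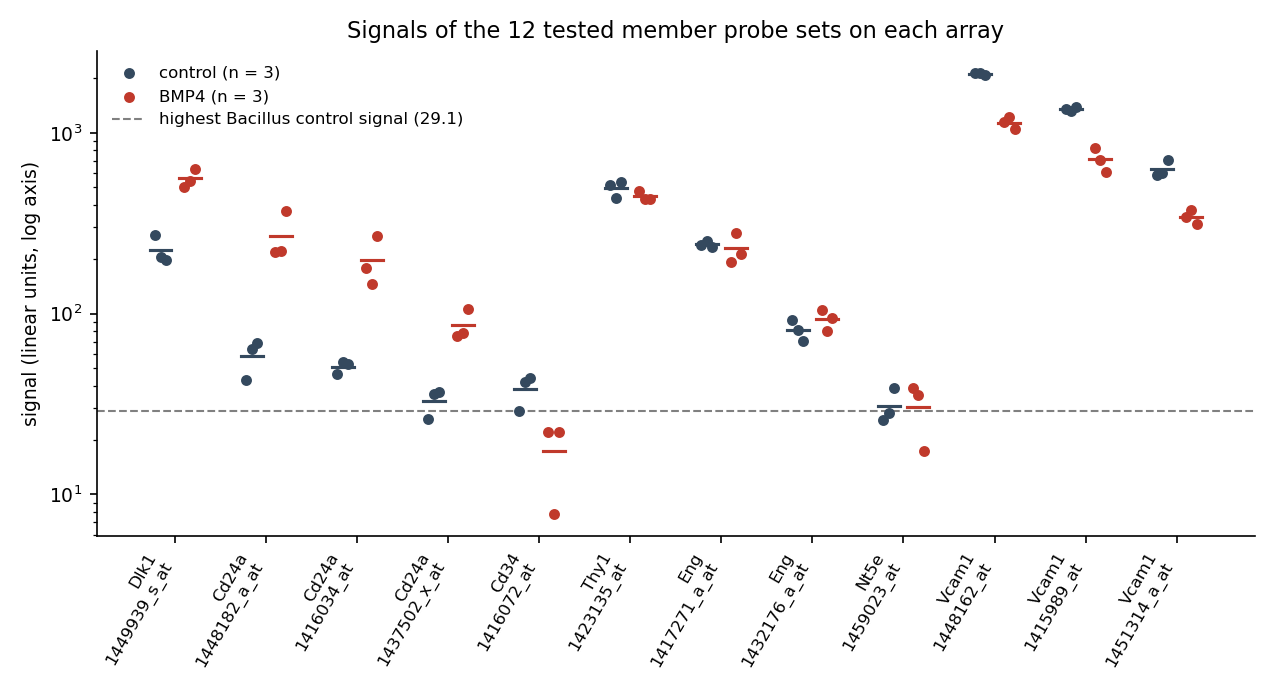
Signal on each of the 6 arrays (logarithmic axis, linear signal units) for the 12 member probe sets that were tested, with control arrays in dark blue, BMP4 arrays in red and bars at the group means. The 3 Cd24a probe sets and 1 Dlk1 probe set lie higher on every BMP4 array, the 3 Vcam1 probe sets lie lower on every BMP4 array, and Cd34 and Nt5e lie near the dashed background level of 29.1.

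Cd24a had the largest change of the members tested. Its brightest probe set, 1448182_a_at, read 218.8, 223.3 and 367.4 on BMP4 arrays 1 to 3 and 43.1, 64 and 68.7 on control arrays 1 to 3. Every BMP4 value was thus above every control value, and BMP4 replicate 3 was the highest array. The means were 270 ± 84.5 and 58.6 ± 13.6 (SD, n = 3), a log2 difference of 1.92 ± 0.20 (SE; 95% interval 1.48 to 2.35; limma adjusted p = 0.000138). This change ranked 15 among the rises of all 27022 probe sets.

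The other Cd24a probe sets moved the same way by smaller amounts. Probe set 1416034_at gave 178.4, 146.1 and 268.9 with BMP4 and 46.2, 54.2 and 52.5 without it, a log2 difference of 1.64 ± 0.19 (SE, limma adjusted p = 0.000253). Probe set 1437502_x_at, whose suffix marks probes that can match other transcripts, gave 75.2, 78 and 106.6 against 26.1, 35.8 and 36.9, a log2 difference of 1.06 ± 0.18 (limma adjusted p = 0.00332). BMP4 replicate 3 was again the highest and control replicate 1 the lowest array on both. Without BMP4 replicate 3 the changes of the 3 probe sets were at least 0.93 and stayed past the test. The size depended on the constant added before taking logs: adding 64 in place of 16 gave 1.42, 1.16 and 0.63, and adding 4 gave 2.11, 1.83 and 1.29.

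Dlk1 rose on its bright probe set and read near background level on a second one. Probe set 1449939_s_at gave 499.9, 544.4 and 634.1 with BMP4 and 271.7, 204.7 and 198.8 without it. Both groups were separate, and the highest control value was well under the lowest BMP4 value. The means were 559 ± 68.4 and 225 ± 40.5 (SD, n = 3), a log2 difference of 1.26 ± 0.12 (SE; 95% interval 0.99 to 1.53; limma adjusted p = 7.88e-05). The other probe set, 1442724_at, was too dim for the test and pointed the opposite way, at 8.8, 8.5 and 16.5 with BMP4 and 23.9, 22.7 and 32.6 without it. It was under background level on 5 of the 6 arrays, although all 3 control values and 0 of the 3 BMP4 values exceeded the highest Bacillus signal of their own array. In a fit without the filter its adjusted p was 0.152. The rise of Dlk1 therefore rests on 1 probe set.

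The bases in front of the start of Dlk1 are shown because it is the changed member whose promoter sequence was at hand, beside those of Eng and Cd34, which were not past the test. The windows are the 250 bases before the RefSeq start on the GRCm38.p6 build, on the plus strand, at chr12:109452573-109452822 for Dlk1, chr2:32646345-32646594 for Eng and chr1:194938571-194938820 for Cd34. Capitals mark CAGAC or its complement GTCTG, a short core bound by Smad proteins, a family of transcription factors that includes those activated by BMP receptors.
Dlk1: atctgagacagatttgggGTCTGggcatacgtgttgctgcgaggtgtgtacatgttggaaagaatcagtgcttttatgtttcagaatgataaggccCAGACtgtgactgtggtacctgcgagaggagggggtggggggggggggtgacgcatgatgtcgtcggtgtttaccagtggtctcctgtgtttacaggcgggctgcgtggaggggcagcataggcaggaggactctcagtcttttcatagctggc
Eng: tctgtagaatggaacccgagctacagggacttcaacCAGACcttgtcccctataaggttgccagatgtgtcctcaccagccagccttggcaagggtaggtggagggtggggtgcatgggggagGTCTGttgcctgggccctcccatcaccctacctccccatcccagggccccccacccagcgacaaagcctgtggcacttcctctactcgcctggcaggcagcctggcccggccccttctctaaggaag
Cd34: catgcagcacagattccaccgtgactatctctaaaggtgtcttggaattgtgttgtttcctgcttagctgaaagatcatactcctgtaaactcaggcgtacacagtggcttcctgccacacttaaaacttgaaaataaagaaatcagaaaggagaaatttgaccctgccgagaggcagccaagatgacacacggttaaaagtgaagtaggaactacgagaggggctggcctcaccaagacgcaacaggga

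The Smad core was found at 2 places in the Dlk1 window, starting 232 and 154 bases before the start. Eng, which was not past the test, also held 2, starting 214 and 127 bases before its start, and Cd34 held 0. The core was held on at least 1 strand by 42.2% of all 32851 RefSeq windows of the same length, so its presence is common and says nothing about Dlk1 alone. The longer GC-rich BMP element GGCGCC, which reads the same on both strands and was present in 9.59% of windows, was in none of the 3. The E-box CANNTG, present in 66.2%, was found 1 time in Eng and 0 times in Dlk1 and Cd34. Windows were matched for 6 of the 10 members by symbol, the others being Nt5e, Dpp4 and Mcam.

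Cd34, the sialomucin of blood stem cells, vessels and fat progenitors, read 22.2, 7.8 and 22.2 with BMP4 and 28.9, 41.9 and 44 without it. All BMP4 arrays lay below all control arrays, but the BMP4 values were all under background level and so was 1 control value. Read against their own arrays, 3 of 3 control values and 0 of 3 BMP4 values passed the highest Bacillus signal. The log2 difference of -0.72 ± 0.24 (SE; 95% interval -1.25 to -0.19) had a limma adjusted p of 0.0953 and was not past the test. Set against background level in place of the BMP4 signals, the control mean (geometric) was 1.29-fold above it.

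Dpp4, the exopeptidase CD26 of early interstitial progenitors, was near or under background level on all 4 of its probe sets. The brightest, 1438279_at, gave 4.8, 12 and 21.6 with BMP4 and 17.1, 20 and 32.5 without it, so 1 of 6 arrays passed background level, and 2 control arrays passed their own highest Bacillus signal. The other 3 probe sets stayed between 1.1 and 15.1 on all arrays. None of the 4 was bright enough to be tested.

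The classical stromal panel was measured with different success. Thy1, a lipid-anchored glycoprotein, was bright, at 475.5, 428.9 and 432.9 with BMP4 and 513.7, 438.3 and 535.4 without it, and the groups overlapped. Its log2 difference was -0.14 ± 0.09 (SE, limma adjusted p = 0.359), with a 95% interval of -0.34 to 0.05.

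Eng, endoglin, is a co-receptor that presents BMP and TGF-beta ligands to the type I receptor Acvrl1. On its brighter probe set, 1417271_a_at, it gave 193.2, 280.5 and 214.3 with BMP4 and 239.2, 251.3 and 233.2 without it. BMP4 arrays lay on both sides of the control arrays, and the log2 difference was -0.08 (95% interval -0.35 to 0.18, limma adjusted p = 0.735). The dimmer probe set 1432176_a_at gave 104.3, 80.3 and 95 against 92.5, 81 and 70.3, a log2 difference of 0.17 (95% interval -0.15 to 0.49, limma adjusted p = 0.542). For Thy1 and both Eng probe sets the interval thus ended short of a log2 size of 0.50, below the sizes measured for Cd24a, Dlk1 and Vcam1.

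Nt5e, the ecto-enzyme that turns AMP into adenosine, was at the edge of detection. Its brightest probe set, 1459023_at, gave 39, 35.3 and 17.3 with BMP4 and 25.8, 28.3 and 38.6 without it, with 3 of 6 arrays above background level. The log2 difference was -0.04 (95% interval -0.55 to 0.48, limma adjusted p = 0.95). The other 2 probe sets were under background level on every array, between 3.5 and 26.5, and 1 of them passed the highest Bacillus signal of its own array on 2 control arrays.

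Vcam1, the ligand on stromal cells for integrin alpha-4 beta-1, fell on all 3 of its probe sets by nearly equal amounts. Probe set 1448162_at gave 1153.1, 1215.1 and 1048.3 with BMP4 and 2146.7, 2131.2 and 2082.6 without it. Control arrays were close together and wholly above the BMP4 arrays. The means were 1139 ± 84.3 and 2120 ± 33.4 (SD, n = 3), a log2 difference of -0.89 ± 0.07 (SE; 95% interval -1.05 to -0.73; limma adjusted p = 2.51e-05).

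The dimmer Vcam1 probe sets gave the same picture. Probe set 1415989_at read 819.5, 710.2 and 609.8 with BMP4 against 1355.8, 1312.7 and 1387.9 and fell by 0.92 on the log2 scale (limma adjusted p = 0.00014). Probe set 1451314_a_at read 344.2, 373.4 and 312.6 against 581.3, 596.4 and 710.2 and fell by 0.84 (limma adjusted p = 0.000215). Among the falls of all probe sets tested the 3 ranked 252, 234 and 315. Vcam1 was bright, so unlike Cd24a its change varied little with the constant added: over all alternatives the 3 log2 changes lay between -1.02 and -0.75.

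Mcam, or CD146, the adhesion molecule of endothelium and pericytes, was not detectable. Its probe set read 5.8, 2.4 and 8.2 with BMP4 and 4.7, 4.7 and 8.9 without it, all under background level, and was not tested.

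**Figure D2:**
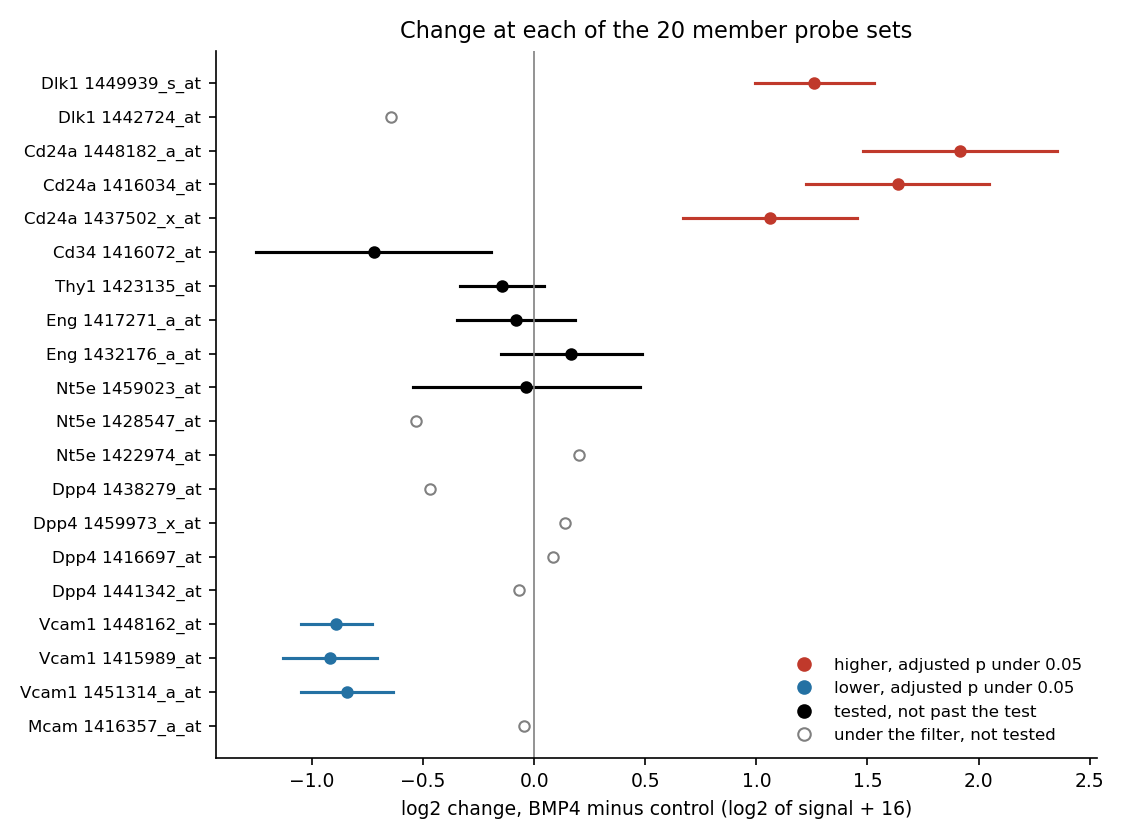
Log2 change, BMP4 minus control, at each of the 20 member probe sets, with 95% intervals from limma for the 12 that were tested and open points for the 8 under the filter. The 3 Cd24a probe sets and the bright Dlk1 one lie at 1.06 to 1.92, the dim, untested Dlk1 one at -0.64, Vcam1 at -0.92 to -0.84, and the intervals of Thy1, Eng and Nt5e cross 0.

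**Figure D3:**
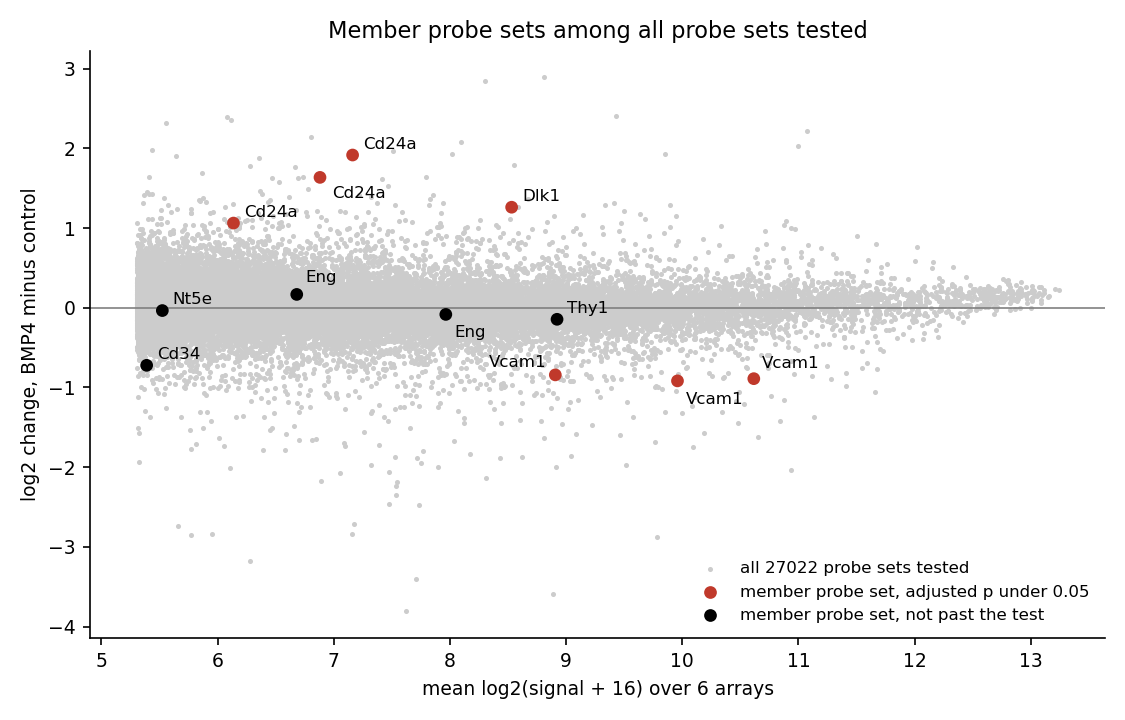
Log2 change against mean log2 signal for all 27022 probe sets tested (grey) and the 12 member probe sets, red where the limma adjusted p was under 0.05. The Vcam1 probe sets are bright and tightly grouped, the Cd24a ones are of middle to low brightness, and Cd34 and Nt5e sit at the dim edge.

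Other surface markers of stromal cells, from a list of 30 names, moved in both directions. Of 22 tested genes 2 rose and 3 fell, 22.7% called against 10.7% of all genes, with a median log2 change of -0.07 against 0.03 over all genes. Anpep, the aminopeptidase CD13, fell from 271 ± 16.4 to 118 ± 13.3 (SD, n = 3), a log2 difference of -1.10 (limma adjusted p = 6.2e-05). Pdgfra, the receptor that marks mesenchymal progenitors, fell from 3392 ± 167 to 1815 ± 173, a log2 difference of -0.90. Itga6, an integrin chain that binds laminin, rose from 40.5 ± 7.82 to 109 ± 32.4, a log2 difference of 1.12 (limma adjusted p = 0.00423). The hyaluronan receptor Cd44 also rose, by 0.53 (limma adjusted p = 0.0202). Leaving out BMP4 replicate 3 ended that call (0.0594), as did leaving out control replicate 1 (0.0714), so that 1 gene of the list was then higher. It also ended without the filter (0.0629) and with centring on the median of all probe sets (0.0863).

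The receptors that work beside endoglin were mostly not past the test. Of 8 tested BMP and TGF-beta receptors 0 rose and 2 fell, 25% called against 10.7% of all genes, with a median of -0.07. Tgfbr3, the co-receptor betaglycan, fell from 2173 ± 137 to 1338 ± 235 (SD, n = 3), a log2 difference of -0.71 (limma adjusted p = 0.00292). Tgfbr2, the type II TGF-beta receptor, fell from 3188 ± 218 to 2259 ± 136, a log2 difference of -0.49 (limma adjusted p = 0.00273). Bmpr2, the type II BMP receptor, gave -0.07 (limma adjusted p = 0.624). Acvrl1, endoglin's own partner, read 12.8 to 30.2 and was too dim to test.

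Genes around Dlk1 also split. Of 9 tested genes for Dlk1 shedding, Notch signalling and the imprinted neighbours of Dlk1, 2 rose and 1 fell. That was 33.3% called against 10.7% of all genes, with a median log2 change of 0.10. Notch3 fell from 582 ± 13.8 to 244 ± 2.89 (SD, n = 3), a log2 difference of -1.20 (limma adjusted p = 1.72e-06). A dimmer Notch3 probe set gave -0.55 and was not past the test (limma adjusted p = 0.133). The Notch target Hes1 rose from 53 ± 14.6 to 123 ± 10.1, a log2 difference of 1.03 (limma adjusted p = 0.00306).

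Notch1 rose by 0.78 (limma adjusted p = 0.0233), but that call ended when BMP4 replicate 2 (0.0571) or 3 (0.0502) or control replicate 1 (0.0873) or 2 (0.0768) was left out. It also ended without the filter on low values (0.07) and with arrays centred on the median of all probe sets (0.0572). Another Notch1 probe set gave 0.64 (limma adjusted p = 0.0119). Meg3, the RNA expressed from the other parental copy of the Dlk1 domain, read 727.7, 685.4 and 679.6 with BMP4 and 640.9, 671.3 and 641.9 without it, with every BMP4 array above every control array. Its log2 difference of 0.10 (95% interval -0.05 to 0.24, limma adjusted p = 0.418) was not past the test, and Adam17, the sheddase that releases the Dlk1 ectodomain, gave -0.14 (limma adjusted p = 0.358).

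Among 13 tested partners of Vcam1, Cd34, Thy1, Cd24a and Mcam 2 were called higher and 2 lower, with a median of 0.03. That was 30.8% called against 10.7% of all genes. Of the 2 higher genes, Itgb3 passed the filter only through its BMP4 arrays, so its call had to favour BMP4 and supports nothing on the list. Itgb3, an integrin chain that pairs with alpha-V to bind Thy1, was under background level on every control array, with means of 9.53 ± 4.77 without and 51.6 ± 7.90 with BMP4 (SD, n = 3). Against background level it was at least 1.76-fold higher with BMP4 (limma adjusted p = 0.00155, and 0.00876 in a fit without the filter). Its probe set was too dim to be tested without any 1 of the BMP4 arrays, which left 1 higher gene in the list. Lgals3, the lectin galectin-3, rose from 659 ± 91.9 to 1346 ± 184, a log2 difference of 1.01 (limma adjusted p = 0.000217). Lama4, the laminin chain recognised by Mcam, fell from 1276 ± 78.1 to 841 ± 73.1, a log2 difference of -0.59 (limma adjusted p = 0.000764). Itga4, the alpha chain of the Vcam1 receptor, was under background level on all arrays, while its beta chain Itgb1 was bright and gave -0.08 (limma adjusted p = 0.595).

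The lists around Nt5e, Dpp4 and Ly6a had no calls with limma, where 10.7% of all genes were called. Of 9 tested genes of the adenosine pathway 0 passed, with 1 at an unadjusted p under 0.05, the pyrophosphatase Enpp3 (log2 -0.31, limma adjusted p = 0.184). Of 8 tested relatives and substrates of Dpp4 0 passed, with 1 at an unadjusted p under 0.05. That gene was Cxcl12, the chemokine cleaved by Dpp4, and its probe sets differed: the brightest gave 0.25 (limma adjusted p = 0.109) and a second 0.80 (limma adjusted p = 0.000452), the latter with signals of 4287 with and 2467 without BMP4. Ccl5, on the same list, was under background level on every array and too dim for the test. Its means were 2.93 with and 19.3 without BMP4, and a fit without the filter called it lower (limma adjusted p = 0.00975). Of 11 tested Ly6 family and lipid anchor synthesis genes 0 passed, with 1 at an unadjusted p under 0.05. That gene was Ly6e, a relative of Ly6a (log2 -0.46, limma adjusted p = 0.0783). With arrays centred on the median of all probe sets Ly6e was past the test (limma adjusted p = 0.0442). A second Ly6e probe set gave 0.12 in the other direction (limma adjusted p = 0.782).

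**Figure D4:**
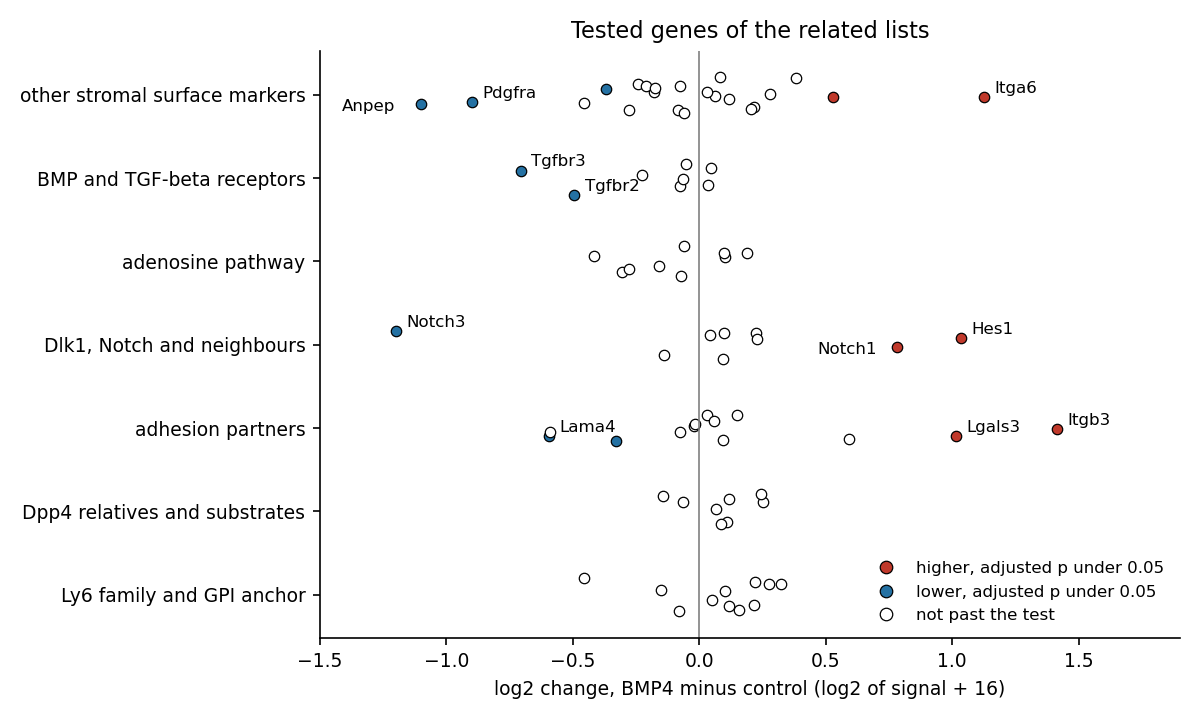
Log2 change, BMP4 minus control, of each tested gene in the 7 related lists, by its brightest probe set, with filled points where the limma adjusted p was under 0.05 and vertical scatter added for legibility. Falls of Notch3, Anpep and Pdgfra and rises of Itga6, Hes1 and Lgals3 stand apart, as does Itgb3, whose control arrays were under background level, and the adenosine, Dpp4 and Ly6 lists hold open points.

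The mesenchymal identity given by the labels was checked on its markers. All 10 measured fibroblast and mesenchymal genes were above background level on all 6 arrays. Their summed signal was 52724 to 62030 with and 47920 to 58994 without BMP4, and 2 of the 10 were lower, Pdgfra and the transcription factor Twist1 (log2 -0.48, limma adjusted p = 0.044). That was 20% called against 10.7% of all genes. The call of Twist1 was lost without any 1 array except BMP4 replicate 2, with an adjusted p of up to 0.155, and was kept under 8 of 18 alternatives in all.

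Cd24a, Cd34, Vcam1 and Mcam also mark other cell types, whose markers were read beside them. Among endothelial markers 3 of 10 were above background level on no array, including Pecam1 and Vwf. Another 2 were above it on all arrays, Tek (mean signals 64.7 with and 114 without BMP4) and Flt1 (38.7 and 41.5). The rest, among them Kdr and Cdh5, were above it on some arrays. The list summed to 232 to 397 with and 291 to 379 without BMP4. In that list 1 of 6 tested genes was called, 16.7% against 10.7% of all genes. It was the angiopoietin receptor Tek, which fell (log2 -0.69, limma adjusted p = 0.0167). Tek was not past the test when BMP4 replicate 3 (0.0523) or control replicate 1 (0.0788) or 3 (0.0584) was left out. Among haematopoietic markers 4 of 11 were above background level on no array, including Ptprc, the pan-leukocyte marker CD45, and 5 were above it on all arrays. Those 5 were Csf1r (mean signals 141 with and 126 without BMP4), Cd14 (196 and 195), Adgre1, Cd68 and Laptm5. The list summed to 551 to 718 against 545 to 572, with 0 of 7 tested genes past limma and 1 at an unadjusted p under 0.05. That gene was Lyz2, lysozyme of myeloid cells, at 58.8, 52 and 49.7 with BMP4 and 30, 40 and 17.5 without it (log2 0.65, limma adjusted p = 0.0853).

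Epithelial markers summed to 393 to 620 with and 494 to 598 without BMP4, with 0 of 4 tested genes past limma and 0 at an unadjusted p under 0.05. Cdh1 was under background level on all arrays, whereas Epcam read 197 to 428 with and 336 to 413 without BMP4 (log2 -0.25, limma adjusted p = 0.543). Among pericyte and smooth muscle markers 4 of 10 were above background level on no array and 5 were above it on all arrays. Those 5 were Acta2, Pdgfrb, Cspg4 (mean signals 291 with and 251 without BMP4), Des (57.9 and 41.2) and Tagln (46.1 and 46.9). The list summed to 7042 to 7808 with and 5986 to 6621 without BMP4, nearly all of it from Acta2 and Pdgfrb. Of 6 tested genes in that list 1 was called, 16.7% against 10.7% of all genes. Acta2, smooth muscle actin, was higher by 0.37 (limma adjusted p = 0.0329), which was not past the test under either centring or when replicate 1 or 2 of either group was left out, with an adjusted p of up to 0.117 without 1 array. It was kept under 9 of 18 alternatives in all. The part of these cell types in the results for the members was not tested.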

How the data were processed

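RNA from 6 samples, 3 with BMP4 and 3 without, was measured on single-colour arrays with biotin label. The deposited values are linear signal intensities. GCOS 1.3 is the tool that the submitters' processing notes name, and its settings and any genome build were not given in the sources used. The trimmed means are equal, so a change common to most RNAs cannot be read from these values. The number of arrays limits the precision.

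The 64 control probe sets were left out. Of 45101 probe sets 34958 had 1 symbol, 932 had several and 9211 were unnamed here, and the RefSeq table (GRCm38.p6) changed 0 symbols. Values were log2(signal + 16), filtered at the 40th percentile. The test was two-sided, from limma 3.58.1 under R 4.3.3, with lmFit and with eBayes allowing the variance to follow intensity. All 27022 tested p-values were adjusted together by Benjamini-Hochberg and called under 0.05. A gene was led by its brightest probe set. Promoter windows are RefSeq's.

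The members and lists were chosen with earlier results of these data known. Named beside the members are, per related list, up to 3 called genes with the largest change, or the one with the smallest p; Cd44, Bmpr2, Acvrl1, Meg3, Adam17, Itga4, Itgb1 and the cell type markers were named after their values were seen. Data simulated for this comparison had 27022 probe sets, independent noise and far fewer changed probe sets than were called here. On them the test recovered 28%, 84%, 98% and 100% of those changed 1.5-fold, 2-fold, 3-fold and 4-fold, with 5 false calls. Recovery in the measured data may therefore differ. Alternatives were other constants, filters, normalizations, centrings, variance models, a replicate block, and leaving out each array. Same-numbered samples did not deviate together (correlations 0.01, -0.0026 and -0.072), so the block is only an alternative.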

Additional observations from a re-analysis of the deposited data

How the results depend on the processing

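All 7 calls of members were kept under each alternative in which the probe set was tested, and no other member passed in any of them. The number of higher member probe sets was 4 and of lower ones 3 throughout, with a replicate block too, except for 3 higher with the filter at the 60th percentile, which left out the dimmest Cd24a probe set. Over all probe sets, 659 were higher and 763 lower without the intensity trend, and 632 were higher when arrays were centred on the median of all probe sets, an alternative chosen after seeing the data, against 1136 and 1328. Leaving out 1 array gave 845 to 1063 lower probe sets, the fewest without control replicate 1 and 854 without control replicate 2. The replicate block lost the calls of Acta2 (adjusted p = 0.0729) and Twist1 (0.0574) and left 2090 probe sets called. Without the intensity trend Notch1 (0.0941), Cd44 (0.106), Mme (0.0682), Itgb5 (0.0659), Acta2 (0.105) and Twist1 (0.143) were not past the test. Cxcl12 passed with quantile normalization (0.0486) and cyclic loess (0.0496). The cause of these differences was not tested. Low signal limits Cd34, Nt5e, Dpp4, Mcam and the second Dlk1 probe set.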
